A study of Mus musculus with 9 samples.

Results

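The enzymes that make serine and that pass its carbon through the folate cycle were followed in mouse ES cells deprived of Thr or Cys. Members were chosen by name, as the genes of the count table whose GENCODE symbol was Phgdh, Psat1, Psph, Shmt1, Shmt2, Mthfd1, Mthfd2, Mthfd1l or Aldh1l2. All 9 were found among the 20189 genes of the table, and all 9 were among the 20143 genes with at least 1 count that were tested. Poly(A) RNA was sequenced from wild-type E14 cells, an established line of pluripotent mouse ES cells that was here grown on gelatin with leukemia inhibitory factor. The titles give 3 libraries of cells starved of Cys, 3 of cells starved of Thr and 3 of unstarved cells, and starvation lasted 3 h. By the treatment text in the labels, every group, the unstarved cells included, was kept in a defined medium with dialyzed serum, β-mercaptoethanol and leukemia inhibitory factor, and the unstarved cells received every amino acid in it. That text names Arg and Leu where the titles name Cys and Thr, and the titles were followed here. The sources call the 3 libraries of a group replicates without saying that they came from separate cultures, so p-values measure the spread between these libraries, which may be technical. All results are from this single line.

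Serine is made from an intermediate of glycolysis by PHGDH, PSAT1 and PSPH in succession. The hydroxymethyltransferases SHMT1 in the cytosol and SHMT2 in mitochondria then split serine into glycine and a carbon unit carried by tetrahydrofolate. In mitochondria MTHFD2 oxidises that unit, MTHFD1L releases it as formate and ALDH1L2 releases it as carbon dioxide. In the cytosol MTHFD1 takes up the formate for purine, thymidylate and methionine synthesis. Mouse ES cells also draw glycine and folate-bound carbon from the breakdown of Thr, and genes of serine synthesis and of the mitochondrial branch are known targets of ATF4, a transcription factor that responds to amino acid shortage.

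Library totals ran from 48763102 to 74962733 counts. Expression is given as TMM-scaled CPM (counts relative to the library total), so each value is a share of the library, and fewer cells with a transcript and less of it per cell cannot be told apart. The 7 ES cell markers of the marker list summed to 3640 to 3880 CPM in every library. Single markers moved in opposite directions within that sum. With Thr starvation Tdh and Nanog had log2 fold changes of -0.65 and -0.42, and Esrrb and Sox2 of 0.43 and 0.44. The 3 fibroblast feeder markers found summed to 8.76 to 12.6 CPM, and no marker was at 0 in any library. The 4 endoderm markers summed to 3.17 to 3.41 CPM in unstarved, 4.63 to 5.43 CPM in Thr-starved and 4.30 to 5.07 CPM in Cys-starved libraries, higher in every starved library. The 2 neural progenitor markers likewise summed to 15.5 to 16.5 CPM in unstarved, 22.2 to 25.8 CPM in Thr-starved and up to 21.7 CPM in Cys-starved libraries, again higher in every starved library. The 3 mesoderm markers summed to 2.63 to 2.83 CPM in Thr-starved, 5.33 to 5.97 CPM in Cys-starved and 5.91 to 7.49 CPM in unstarved libraries. These lists did not move as 1. Mixl1 had a log2 fold change of 0.29 (SE 0.28) with Thr, beside -1.56 for T and -1.53 for Eomes. Gata6 changed by 0.12 with Thr and 0.03 with Cys starvation, and Pax6 by 0.13 with Thr, less than the other genes of their lists. The part of these differences in the results was not tested.

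Among the members, the enzymes of the mitochondrial branch rose with both starvations. Mthfd2l, a mitochondrial relative of Mthfd2 outside the members, was called higher in neither (below). Of the cytosolic members Shmt1 fell and Mthfd1 was not called, though Mthfd1 was called higher with Thr under other settings. Serine synthesis divided between the starvations. With Thr starvation 5 of the 9 members were called higher and 2 lower at an adjusted p of 0.05 or less in edgeR's quasi-likelihood test, and 2 were not called. Adjusted p-values of single genes throughout come from the same edgeR fit over all genes. Over all genes tested 63.0% were called in this comparison, 31.1% higher and 31.9% lower, so a called gene was the usual case. Calls were more frequent still among the 11410 genes whose mean reached 5 CPM, a level that every member reached. Of these genes 4740 were called higher and 4459 lower. With Cys starvation 7 members were called higher, 1 lower and 1 not, where 36.3% of all genes were called, 17.5% higher and 18.8% lower. Of the 11410 genes whose mean reached 5 CPM, 2803 were called higher and 3475 lower with Cys starvation. The median log2 fold change of the 9 members was 0.08 with Thr and 0.34 with Cys starvation, beside -0.016 and 0.007 over all genes tested. An increase of at least 0.5 on the log2 scale was called for 2 members with Thr (Mthfd2 and Aldh1l2), where 15.3% of all genes had it, and for 4 with Cys starvation (these and Psph and Shmt2), where 3.86% had it. All 4 mitochondrial members were called higher in each starvation, with medians of 0.61 for Thr and 0.62 for Cys. Neither of the 2 cytosolic members was called higher in either, and their medians were -0.09 and -0.05. Of the 3 serine synthesis enzymes, Thr starvation raised 1 and lowered 1, whereas Cys starvation raised all 3. The comparisons with unstarved cells share the same 3 control libraries and are set side by side for that reason, without a measure of their likeness.

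**Figure D1:**
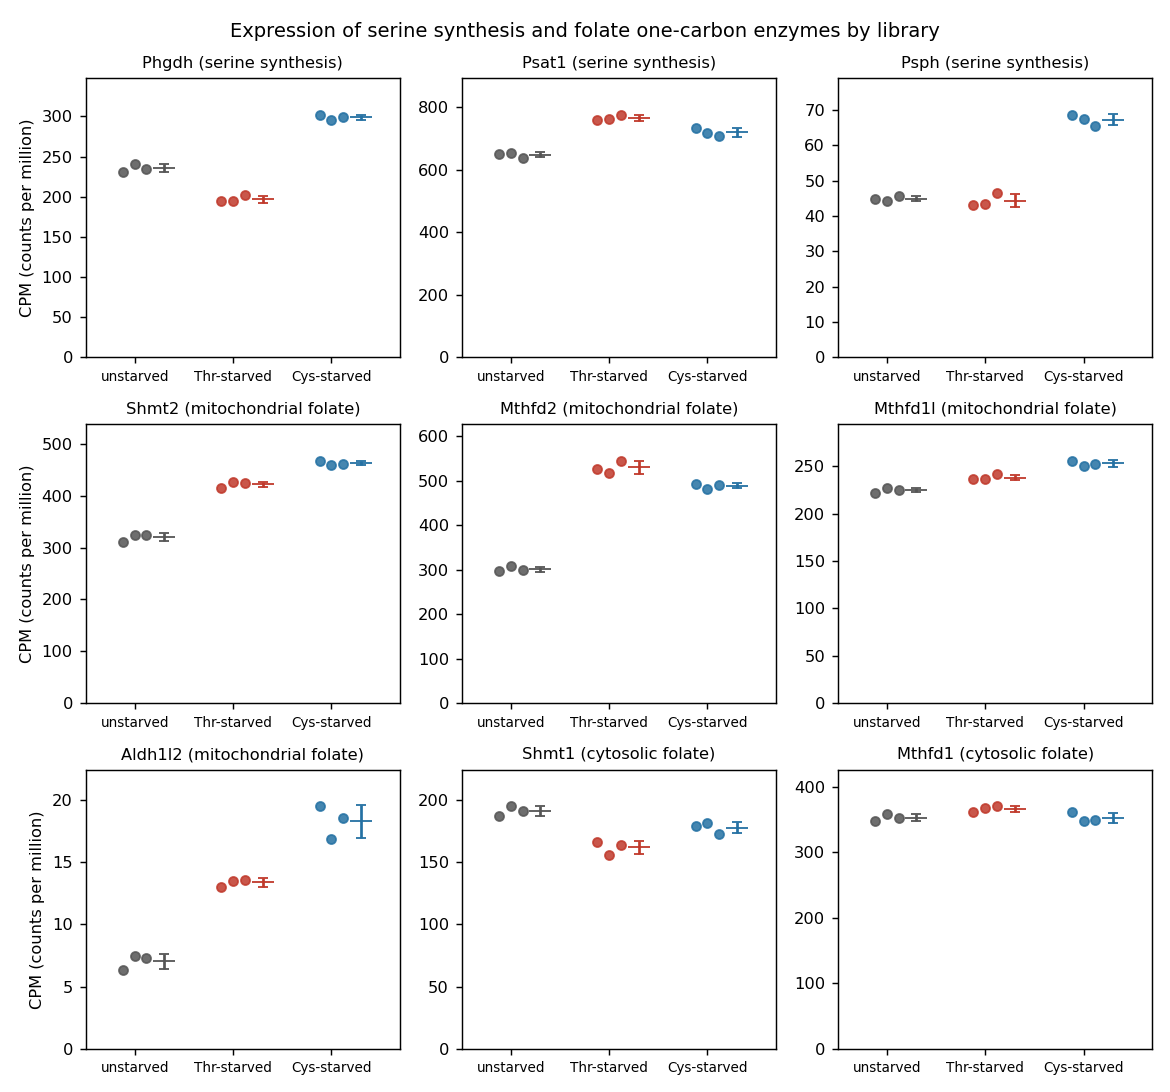
CPM of each of the 9 enzymes in every library (y axis, from 0) by group (x axis). Points are libraries, and the bar beside them gives the mean and SD of 3. Mthfd2, Shmt2 and Aldh1l2 lie higher in all 6 starved libraries than in the 3 unstarved ones, Psph and Phgdh stand highest in the Cys-starved libraries, and Mthfd1 hardly moves.

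Psat1, Shmt2, Mthfd2 and Mthfd1l, which were called higher in both starvations, are shown with the 250 bases before their RefSeq start sites. Aldh1l2 behaved in the same way but has no entry in the promoter table. The sequences are from RefSeq on GRCm38.p6 and read from 5′ to 3′ on the strand of the gene, which is the minus strand for Psat1, Shmt2 and Mthfd2 and the plus strand for Mthfd1l. Capitals mark GGGCGG, the core of the GC box, and CCAAT, the core of the CCAAT box, on either strand. They lie at chr19:15925060-15925309 for Psat1, chr10:127522445-127522694 for Shmt2, chr6:83317605-83317854 for Mthfd2 and chr10:3972825-3973074 for Mthfd1l. Those of Psat1 and Mthfd2 lie within the GENCODE span of the gene, which begins further upstream.
Psat1: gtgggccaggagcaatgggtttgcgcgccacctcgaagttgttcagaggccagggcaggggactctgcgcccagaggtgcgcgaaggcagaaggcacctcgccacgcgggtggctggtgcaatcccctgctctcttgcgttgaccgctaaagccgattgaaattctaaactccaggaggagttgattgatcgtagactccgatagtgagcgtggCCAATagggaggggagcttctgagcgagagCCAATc
Shmt2: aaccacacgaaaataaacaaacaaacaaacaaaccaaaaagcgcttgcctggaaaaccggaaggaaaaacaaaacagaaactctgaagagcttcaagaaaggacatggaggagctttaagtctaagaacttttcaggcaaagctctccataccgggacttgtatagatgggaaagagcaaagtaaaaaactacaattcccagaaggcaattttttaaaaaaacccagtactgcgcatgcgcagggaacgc
Mthfd2: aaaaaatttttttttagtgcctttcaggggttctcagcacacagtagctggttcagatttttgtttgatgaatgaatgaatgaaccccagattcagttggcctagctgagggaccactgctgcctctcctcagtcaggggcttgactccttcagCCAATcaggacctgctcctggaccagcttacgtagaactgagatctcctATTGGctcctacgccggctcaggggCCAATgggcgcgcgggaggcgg
Mthfd1l: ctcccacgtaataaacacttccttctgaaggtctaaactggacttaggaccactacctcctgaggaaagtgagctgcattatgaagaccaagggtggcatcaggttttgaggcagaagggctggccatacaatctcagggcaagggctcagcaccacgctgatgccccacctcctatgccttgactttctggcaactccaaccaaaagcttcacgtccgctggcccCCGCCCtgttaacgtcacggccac
The Mthfd2 window holds 3 CCAAT boxes and the printed Psat1 window holds 2 upstream of the start, whereas Shmt2 has neither motif and Mthfd1l has a single GC box. The other Psat1 window, at chr19:15924623-15924872, is not printed and holds 0 CCAAT boxes and 1 GC box upstream of its start. The full windows also hold 50 bases after the start, and 8 of the 9 members have at least 1 (Psat1 has 2). In them TGATGNAA, the core of the element bound by C/EBP and ATF factors, was found on either strand in 0 of the 8 members and in 3.97% of all 32851 promoters of the table. CACGTG, the E-box, was found in 0 of the 8 members and in 7.15% of all promoters. GGGCGG was found in 5 of the 8 members (Psat1 through its other window alone) and in 35.7% of all, and CCAAT in 6 of the 8 and in 37.4%. These last motifs were added after the data were seen. No match of one of these motifs is counted as a match of another, and elements further from the start or inside an intron were not searched.

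Phgdh (ENSMUSG00000053398; chromosome 3 of GRCm38, 98313170 to 98339990, minus strand) encodes the dehydrogenase of the first step of serine synthesis. It was at 231, 241 and 235 CPM in the unstarved libraries, at 195, 194 and 202 CPM in the Thr-starved ones and at 302, 296 and 299 CPM in the Cys-starved ones. Every Thr-starved library lay below every unstarved library, and every Cys-starved library above. With Thr starvation Phgdh fell (log2 fold change -0.26, SE 0.024, adjusted p = 2.9e-09), and with Cys starvation it rose (0.34, SE 0.024, adjusted p = 1.7e-10). Set against each other directly, the starvations differed by -0.60 (SE 0.024, adjusted p = 1.2e-15), Thr being the lower. Phgdh has 9 processed pseudogenes in the table with at least 95% identity to its transcript, among them Gm7901 at 98.7%, and its count is uncertain to the extent that reads were divided among them. The copies together held 159 ± 2.80 CPM in unstarved, 130 ± 3.61 CPM in Thr-starved and 198 ± 0.956 CPM in Cys-starved libraries (SD, n = 3), which was 39.8% to 40.3% of the sum of Phgdh and copies. That sum changed by -0.27 with Thr and 0.33 with Cys starvation as a log2 ratio of means, and the groups did not overlap in it. Phgdh has a GC content of 57.2%, and with offsets that take out trends with GC content and length within each library (below, GC and length offsets) its change with Thr starvation was -0.04 (adjusted p = 0.13), no longer called. With the same offsets its change with Cys starvation was 0.32 (adjusted p = 2.3e-11).

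Psat1 (ENSMUSG00000024640; chromosome 19, 15904678 to 15947337, minus strand) encodes the aminotransferase of the next step. Its libraries were at 649, 653 and 638 CPM without starvation, at 757, 760 and 775 CPM with Thr and at 734, 716 and 707 CPM with Cys starvation. Both starved groups lay wholly above the unstarved one, and the Thr-starved libraries above the Cys-starved ones. The log2 fold change was 0.24 with Thr (SE 0.019, adjusted p = 1.7e-10) and 0.15 with Cys starvation (SE 0.019, adjusted p = 1.3e-06), an increase of 18.1% and of 11.1%. The difference of 0.09 between the starvations passed the test (SE 0.019, adjusted p = 0.00034). Among the 9 members Psat1 had the highest level per length in each group, by the counts assigned to each gene. The sum of Phgdh and its near copies, over the exon length of Phgdh, came to 159 CPM per kilobase in unstarved cells, where Psat1 was at 152, and it also exceeded Psat1 with Cys starvation but not with Thr starvation. Per kilobase of the longest transcript of each gene, that sum lay below Psat1 in every group, so this order depends on the length used.

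Psph (ENSMUSG00000029446; chromosome 5, 129765558 to 129787449, minus strand) encodes the phosphatase that releases serine. It was at 44.8, 44.4 and 45.7 CPM in unstarved, at 43.0, 43.4 and 46.4 CPM in Thr-starved and at 68.7, 67.6 and 65.6 CPM in Cys-starved libraries. The Cys-starved libraries stood apart above the other 6, among which the Thr-starved and unstarved values interleaved. Cys starvation raised Psph by 49.7% (log2 fold change 0.58, SE 0.035, adjusted p = 1.8e-11), and the value with Thr was -0.02 (SE 0.037, adjusted p = 0.67). The direct difference of Thr from Cys starvation was -0.60 (SE 0.036, adjusted p = 1.1e-12). Psph shares 452 exon bases with Cct6a on the opposite strand. The RNA kit marks strand, but the strand setting of the counting is not given in the sources used here. Cct6a, a chaperonin subunit at 740 CPM in unstarved cells, changed by -0.54 with Thr and -0.31 with Cys starvation, opposite in sign to Psph with Cys, and the part of shared reads in the count of Psph was not tested.

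Of the serine synthesis enzymes, Phgdh fell with Thr and rose with Cys starvation, Psat1 rose with both, and Psph rose with Cys and was not called with Thr. With the GC and length offsets Phgdh, like Psph, was called with Cys and not with Thr starvation. The direct comparison called all 3 as different between the starvations, Phgdh and Psph lower and Psat1 higher with Thr, where 62.0% of all genes tested were called.

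**Figure D2:**
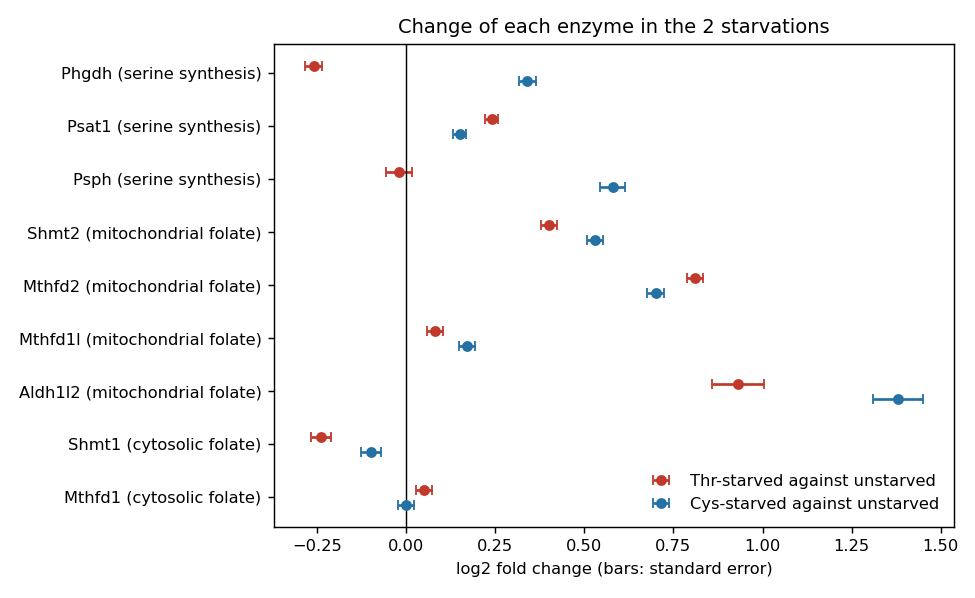
Log2 fold change of each enzyme (x axis) in Thr-starved (red) and Cys-starved (blue) cells against unstarved cells, with bars for the standard error, grouped by pathway branch. The mitochondrial enzymes all lie to the right of 0, from 0.08 for Mthfd1l with Thr to 1.38 for Aldh1l2 with Cys, whereas Phgdh lies on opposite sides of 0 in the 2 starvations.

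Shmt2 (ENSMUSG00000025403; chromosome 10, 127517123 to 127522444, minus strand) encodes the mitochondrial hydroxymethyltransferase, through which serine carbon enters the organelle's folate pool. It was at 311, 325 and 325 CPM in unstarved, at 416, 426 and 424 CPM in Thr-starved and at 468, 460 and 462 CPM in Cys-starved libraries. The 3 groups did not overlap, with the Cys-starved libraries highest. The increase was 31.8% with Thr (log2 fold change 0.40, SE 0.022, adjusted p = 2.7e-13) and 44.7% with Cys starvation (0.53, SE 0.022, adjusted p = 2.1e-14). Which starvation raised Shmt2 more depended on the correction for base composition. The direct difference of Thr from Cys was -0.13 (SE 0.022, adjusted p = 1.2e-05), and with the GC and length offsets it was 0.12 (adjusted p = 9.3e-06), a called difference in the opposite direction. The transcript has a GC content of 57.4%, the highest of the members. With those offsets the increases over unstarved cells were 0.63 with Thr and 0.51 with Cys starvation, both called.

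Mthfd2 (ENSMUSG00000005667; chromosome 6, 83305691 to 83325908, minus strand) encodes the mitochondrial dehydrogenase and cyclohydrolase that oxidises the carbon unit. Its levels were 296, 307 and 300 CPM without starvation, 526, 518 and 545 CPM with Thr and 493, 482 and 491 CPM with Cys starvation. All 6 starved libraries lay above the unstarved ones, and the Thr-starved above the Cys-starved ones. Thr starvation raised it 1.76-fold (log2 fold change 0.81, SE 0.023, adjusted p = 1.7e-18) and Cys starvation 1.62-fold (0.70, SE 0.023, adjusted p = 3.5e-16). The direct difference of 0.12 (SE 0.022, adjusted p = 9.6e-05) set Thr above Cys. Of all genes tested, 90.2% had a smaller log2 fold change than Mthfd2 with Thr starvation and 95.1% with Cys starvation. These shares were 76.6% and 92.0% for Shmt2, and 57.5% and 71.9% for Mthfd1l.

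Mthfd1l (ENSMUSG00000040675; chromosome 10, 3973118 to 4167081, plus strand) encodes the ligase that releases formate from the mitochondrial carrier. It was at 222, 227 and 225 CPM in unstarved, at 237, 237 and 242 CPM in Thr-starved and at 256, 250 and 252 CPM in Cys-starved libraries. The groups were close but did not overlap, in the order unstarved, Thr, Cys. The increases were 5.91% with Thr (log2 fold change 0.08, SE 0.022, adjusted p = 0.0027) and 12.3% with Cys starvation (0.17, SE 0.022, adjusted p = 2.9e-06). The difference of -0.08 of Thr from Cys (SE 0.022, adjusted p = 0.0022) was -0.04 with the deposited size factors (adjusted p = 0.13) and 0.06 with the GC and length offsets (adjusted p = 0.010), so its direction depends on the scaling.

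Aldh1l2 (ENSMUSG00000020256; chromosome 10, 83487450 to 83534140, minus strand) encodes the mitochondrial formyl-tetrahydrofolate dehydrogenase, which releases the carbon as carbon dioxide while forming NADPH. It had 385 to 1230 counts per library, the fewest of the members. Its level was 6.37, 7.45 and 7.31 CPM in unstarved, 13.0, 13.5 and 13.6 CPM in Thr-starved and 19.5, 16.9 and 18.6 CPM in Cys-starved libraries. These groups were well separated, and the Cys-starved libraries were highest. Aldh1l2 showed the greatest fold change of the 9 members in both starvations, 1.90-fold with Thr (log2 fold change 0.93, SE 0.073, adjusted p = 1.3e-10) and 2.61-fold with Cys (1.38, SE 0.070, adjusted p = 8e-13). The direct difference of Thr from Cys was -0.46 (SE 0.065, adjusted p = 2e-06). Of all genes tested, 92.3% had a smaller log2 fold change than Aldh1l2 with Thr starvation and 99.1% with Cys starvation. Aldh1l2 shares 1056 exon bases with D10Wsu102e on the opposite strand, at 98.6 CPM in unstarved cells, which changed by 0.07 with Thr and -0.12 with Cys starvation. The small changes of this neighbour are given because its level exceeds that of Aldh1l2, and the part of shared reads was not tested.

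Shmt1 (ENSMUSG00000020534; chromosome 11, 60788104 to 60811718, minus strand) encodes the cytosolic hydroxymethyltransferase. It was at 187, 195 and 191 CPM in unstarved, at 166, 156 and 164 CPM in Thr-starved and at 179, 182 and 173 CPM in Cys-starved libraries. Both starved groups lay below the unstarved one without overlap. Shmt1 fell with Thr (log2 fold change -0.24, SE 0.028, adjusted p = 1e-07) and with Cys starvation (-0.10, SE 0.028, adjusted p = 0.0049). The direct difference of Thr from Cys was -0.14 (SE 0.028, adjusted p = 0.00021). Smcr8 overlaps 184 exon bases of Shmt1 on the opposite strand and moved the other way, by 1.01 with Thr and 0.16 with Cys starvation.

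Mthfd1 (ENSMUSG00000021048; chromosome 12, 76255298 to 76319803, plus strand) encodes the cytosolic enzyme that unites the synthetase, cyclohydrolase and dehydrogenase activities. It was at 348, 358 and 353 CPM in unstarved, at 361, 367 and 370 CPM in Thr-starved and at 361, 347 and 349 CPM in Cys-starved libraries. The Cys-starved libraries overlapped both other groups, and the Thr-starved libraries lay just above the unstarved ones. Its log2 fold change was 0.05 with Thr (SE 0.022, adjusted p = 0.0502) and -0.0048 with Cys starvation (SE 0.022, adjusted p = 0.90), and neither was called. The direct difference of 0.06 (SE 0.022, adjusted p = 0.033) was called, but not in 4 of the 9 fits that left out 1 library, those without Cys-starved replicate 2 or 3 or Thr-starved replicate 2 or 3, where it was 0.05 with adjusted p-values from 0.078 to 0.14. With the GC and length offsets Mthfd1 was called higher with Thr starvation (0.19, adjusted p = 5.3e-09), close to the mitochondrial Mthfd1l at 0.21.

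The mitochondrial enzymes were next set against the cytosolic enzymes of the same step within each library, a measure that does not depend on how libraries are scaled. The log2 ratio of Shmt2 to Shmt1 counts was 0.73, 0.74 and 0.76 in unstarved, 1.33, 1.45 and 1.37 in Thr-starved and 1.39, 1.34 and 1.42 in Cys-starved libraries. It rose above the unstarved range in all 6 starved libraries, by a mean of 0.64 in either starvation, and the starved groups overlapped. These are uncorrected counts, and with the GC and length offsets the direct differences of Thr from Cys were 0.12 for Shmt2 and -0.11 for Shmt1, both called. The log2 ratio of Mthfd2 to Mthfd1 was -0.23, -0.22 and -0.23 in unstarved, 0.54, 0.50 and 0.56 in Thr-starved and 0.45, 0.47 and 0.49 in Cys-starved libraries. Mthfd2 counts were thus below Mthfd1 counts in every unstarved library and above them in every starved one, with mean differences of 0.76 for Thr and 0.70 for Cys. With the GC and length offsets Mthfd2 changed by 0.78 with Thr and 0.68 with Cys starvation, and Mthfd1 by 0.19 and -0.03. The direct differences of Thr from Cys were then 0.10 for Mthfd2 and 0.23 for Mthfd1, both called, so the order of the starvations in this ratio depended on the offsets. The log2 ratio of Mthfd1l to Mthfd1 moved less, from -0.650 ± 0.0058 in unstarved to -0.618 ± 0.014 in Thr-starved and -0.477 ± 0.013 in Cys-starved libraries (SD, n = 3). In the exact two-sided permutation test, 3 libraries against 3 cannot give a p below 0.1, and this value was reached in all 6 comparisons with unstarved cells (0.1125 after Benjamini-Hochberg adjustment over 9 tests). Between Thr and Cys starvation the exact p was 1.0 for Shmt2 over Shmt1, where the means differed by 0.00, and 0.1 for both other ratios.

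**Figure D3:**
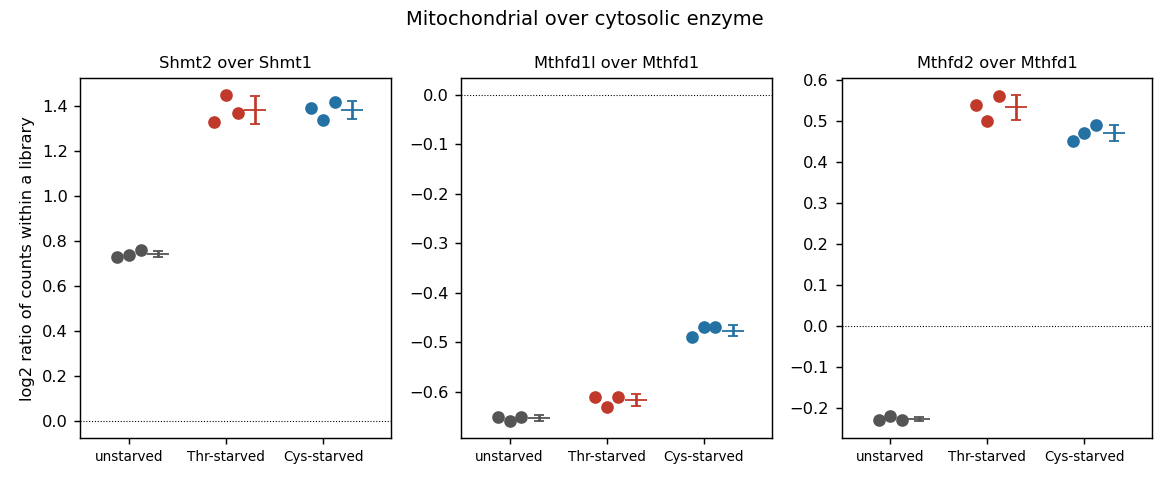
Log2 ratio of mitochondrial to cytosolic enzyme counts within each library (y axes, which differ in range between panels) by group, with points for libraries, bars for the mean and SD of 3, and a dotted line at 0, where both have equal counts. Shmt2 over Shmt1 is near 0.74 in unstarved cells and near 1.38 in both starvations, and Mthfd2 over Mthfd1 crosses 0.

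Levels of different enzymes were compared per length, as CPM per kilobase of merged exons. In unstarved cells the order was Psat1 at 152 ± 1.81 (SD, n = 3), Shmt2 at 103 ± 2.60, Phgdh at 94.8 ± 1.89, Mthfd2 at 86.4 ± 1.62, Mthfd1 at 79.5 ± 1.14, Mthfd1l at 50.8 ± 0.560, Shmt1 at 49.2 ± 1.04, Psph at 10.4 ± 0.151 and Aldh1l2 at 0.938 ± 0.0782. Of these neighbours in order, the libraries of Mthfd1l and Shmt1 overlapped and the others did not. By this length Mthfd2 followed Psat1 directly with Thr starvation at 152 ± 4.04 and followed Psat1 and Shmt2 with Cys starvation at 140 ± 1.75, whereas per kilobase of the longest transcript it followed Psat1 directly in all 3 groups. Psph and Aldh1l2 closed the order in each group. Phgdh fell from 94.8 to 79.3 ± 1.79 with Thr starvation, close to Mthfd1 at 82.4 ± 1.06, and rose to 120 ± 1.33 with Cys starvation.

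**Figure D4:**
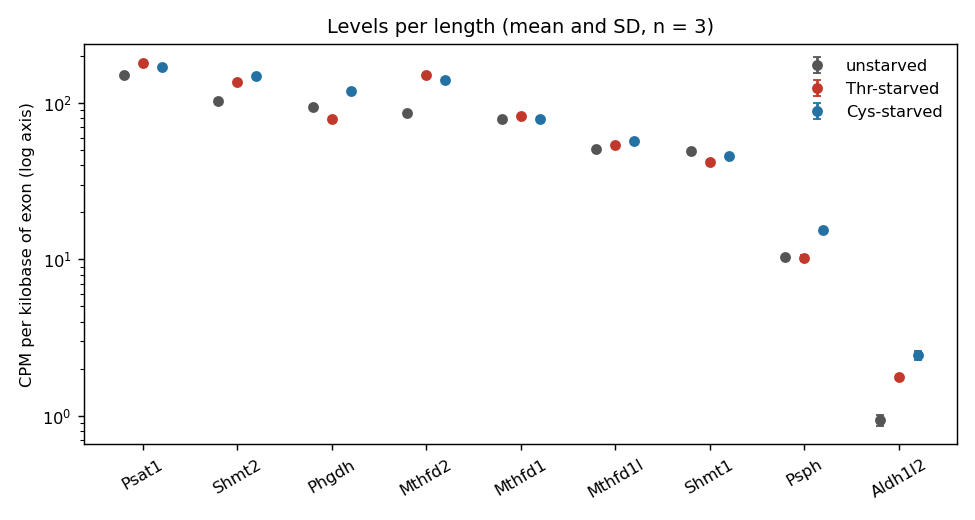
CPM per kilobase of merged exons (log axis) of each enzyme in the 3 groups, ordered by the unstarved level. Points are means and bars are SDs of 3 libraries, most of them smaller than the point. Levels run from 152 for Psat1 to 0.938 for Aldh1l2 in unstarved cells.

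Set against each other directly, the starvations differed in all 9 members, 3 higher and 6 lower with Thr than with Cys, where 62.0% of all genes tested were called (30.4% higher and 31.6% lower). Of the 11410 genes whose mean reached 5 CPM, 4990 were called higher and 4206 lower in this comparison. The median difference of the members was -0.13, beside -0.018 over all genes. With the GC and length offsets 5 were called higher and 4 lower, with a median of 0.064. Psph and Phgdh gave the widest gaps at -0.60 each, followed by Aldh1l2 at -0.46, and the other 6 lay between -0.14 and 0.12. With those offsets Phgdh differed by -0.36, Aldh1l2 by -0.42 and Psph by -0.56. Libraries of the compared groups did not overlap for 8 of 9 members in each of the 3 comparisons, where this held for 66.5% of all genes with Thr, 46.4% with Cys and 65.8% in the direct comparison. These shares include genes of low level, whereas every member reached a mean of 5 CPM, and the share among genes at that level was not computed.

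Other genes of the serine and folate pathways were taken from a list of 28, of which 25 were in the table. Ftcd, Sds and Sdsl were not in the count table used here. With Thr starvation 9 of the 25 were called higher and 12 lower, with a median log2 fold change of -0.27, where 31.1% of all genes were called higher and 31.9% lower. With Cys starvation 4 were called higher and 7 lower, with a median of -0.03, where 17.5% of all genes were called higher and 18.8% lower.

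Folr1, a folate receptor at the cell surface, gave the largest called increase of the list with Thr starvation. It was at 12.5, 13.9 and 12.9 CPM in unstarved, at 36.8, 38.4 and 36.9 CPM in Thr-starved and at 10.9, 12.2 and 10.8 CPM in Cys-starved libraries. The log2 fold change was 1.51 with Thr (SE 0.054, adjusted p = 1.2e-16) and -0.21 with Cys starvation (SE 0.060, adjusted p = 0.0070), so that the starvations moved it in opposite directions. Slc46a1, the proton-coupled folate transporter, was lowered by -0.82 with Thr (SE 0.10, adjusted p = 2e-07) and by -0.25 with Cys starvation (SE 0.094, adjusted p = 0.044). The latter was lost in 3 of the 9 fits that left out 1 library, those without Cys-starved replicate 1 or 3 or unstarved replicate 2, where it ranged from -0.25 to -0.16 with adjusted p-values from 0.087 to 0.25. Fpgs, which adds the glutamate tail that keeps folates in the cell, was at 74.4 ± 1.48 CPM in unstarved, 36.4 ± 0.0880 CPM in Thr-starved and 63.8 ± 2.86 CPM in Cys-starved cells (SD, n = 3). Its log2 fold changes were -1.03 with Thr (SE 0.036, adjusted p = 6.5e-17) and -0.22 with Cys starvation (SE 0.034, adjusted p = 1.6e-05). The reduced folate carrier Slc19a1, the mitochondrial folate carrier Slc25a32, the hydrolase Ggh and the receptor Folr2 made up the rest of the transport group, and Folr2 had 0 to 6 counts per library.

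Among the 7 other folate enzymes in the table, 3 were called higher and 3 lower with Thr starvation, and 2 higher and 1 lower with Cys. Of all genes tested, 63.0% were called with Thr and 36.3% with Cys starvation. Mthfd2l was at 6.43 CPM in unstarved cells. It was called lower with Thr (log2 fold change -0.45, SE 0.083, adjusted p = 5.5e-05). With Cys starvation it was not called (-0.10, SE 0.080, adjusted p = 0.37). Mtfmt, which formylates the initiator tRNA of mitochondria, was lowered by -0.71 with Thr (SE 0.069, adjusted p = 5.3e-09) and -0.22 with Cys starvation (SE 0.066, adjusted p = 0.010). The latter was lost without Cys-starved replicate 3 (-0.19, adjusted p = 0.055) or unstarved replicate 1 (-0.18, adjusted p = 0.064). Mtr, the methionine synthase, rose by 0.16 with Cys starvation (SE 0.043, adjusted p = 0.0042) and had a value of 0.10 with Thr (SE 0.043, adjusted p = 0.059).

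Of the carriers that bring serine into mitochondria, Sfxn3 was at 3.82, 3.44 and 4.66 CPM in unstarved, at 1.43, 2.47 and 1.31 CPM in Thr-starved and at 3.60, 3.69 and 3.35 CPM in Cys-starved libraries. The Thr-starved libraries were lowest, and the other groups overlapped. The log2 fold change was -1.22 with Thr (SE 0.17, adjusted p = 1.6e-06) and -0.16 with Cys starvation (SE 0.15, adjusted p = 0.47). Both carriers of the list, Sfxn1 and Sfxn3, were called lower with Thr starvation, and 1 of the 2 with Cys. For these and the next groups, the shares of all genes called were 63.0% with Thr and 36.3% with Cys starvation. The 4 genes of the glycine cleavage system divided into 2 higher and 2 lower with Thr, with 0 higher and 1 lower with Cys starvation. Both purine synthesis enzymes that use formyl-folate, Gart and Atic, were called lower with Thr starvation (-0.33 and -0.31), and Atic with Cys as well (-0.17). Tyms, the thymidylate synthase among the other folate enzymes, went the other way with Thr starvation (0.50, SE 0.028, adjusted p = 4.7e-13). With Cys starvation Tyms was not called (0.01, SE 0.029, adjusted p = 0.75).

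**Figure D5:**
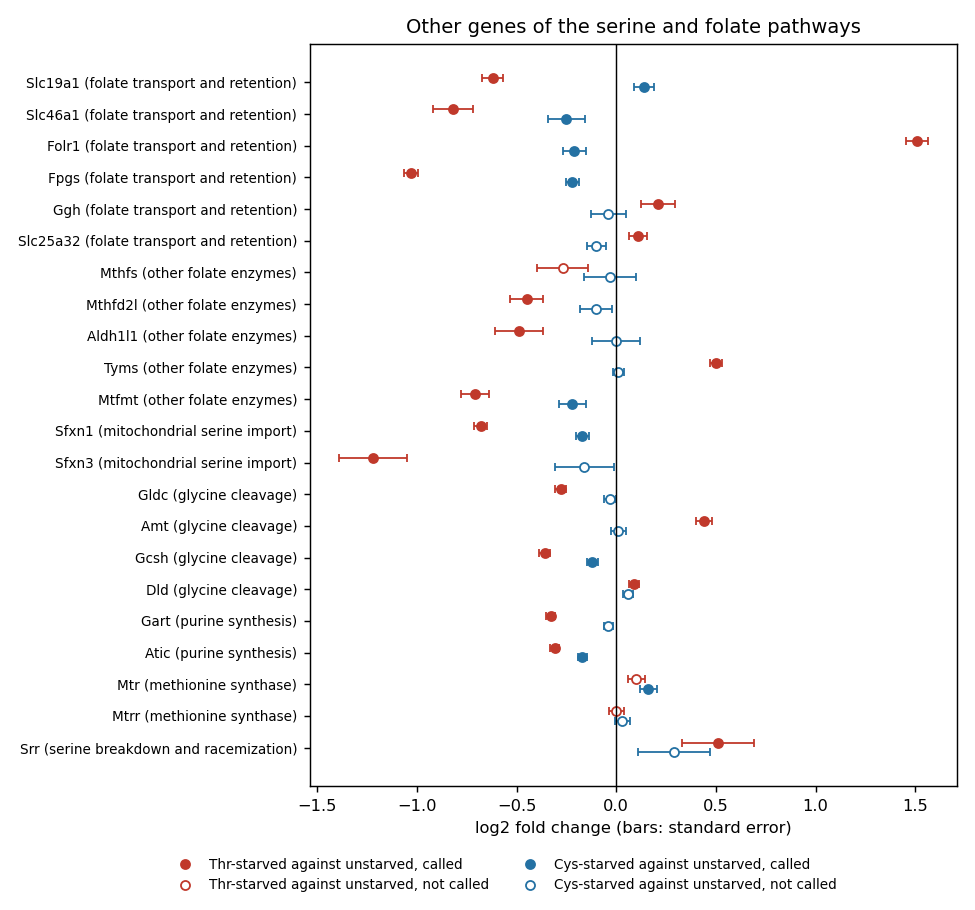
Log2 fold change (x axis, bars for the standard error) of 22 of the 25 other genes of the serine and folate pathways in Thr-starved (red) and Cys-starved (blue) cells against unstarved cells, with filled points for genes called at an adjusted p of 0.05 or less. Folr2, under a mean of 1 CPM, is among those left out. Folr1 at 1.51 and Sfxn3 at -1.22 mark the ends of the Thr values, and the Cys values shown lie closer to 0.

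For Psat1, Shmt2 and Mthfd2, chosen as members called higher in both starvations, the 3 genes of most similar pattern were sought among the 11410 genes whose mean reached 5 CPM, by the root mean square difference in log2(CPM + 0.5), each gene relative to its unstarved mean, over the 6 starved libraries. For Psat1 these were Mrps31, Slc20a2 and Gorasp2, with differences from 0.0134 to 0.0227. For Shmt2 they were Tmem161a, Mocs3 and Slc38a7, from 0.0310 to 0.0469, and for Mthfd2 they were Hexim2, Clic4 and Mt1, from 0.0595 to 0.0740. The gene nearest to Phgdh was Gm7901, a processed pseudogene of Phgdh itself. No member was among the 3 genes nearest to another. The closest such pair was Aldh1l2 with Mthfd2, which ranked 38 among the genes nearest to Aldh1l2, and the member nearest to Mthfd2 was Shmt2, at rank 304.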

How the data were processed

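Samples were grouped by their titles into 3 Thr-starved, 3 Cys-starved and 3 unstarved libraries. The authors prepared stranded poly(A) libraries, mapped the reads to GRCm38 with STAR 2.7.4a and counted them per gene with HTSeq, whose version and strand setting are not given in the sources used here, and they deposited these raw counts. The authors also deposited a table of signal values, the same counts divided by one DESeq2 size factor per library. Even values made up 67.8% of the deposited counts from 1 to 20, and whether mates were counted separately is not stated. Between pairs of libraries of a group the chi-square averaged 1.98 to 2.13 for each gene, at about 10 to 100 counts. Counting mates separately would raise this value by itself, so variation beyond sampling noise was not shown. Each library was kept as its own replicate.

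Raw counts of the 20143 genes with at least 1 count were tested with edgeR 4.0.16 in R 4.3.3, by TMM normalization and the quasi-likelihood test, with all 9 libraries in a single fit and Benjamini-Hochberg adjustment over all genes per comparison. Genes with an adjusted p of 0.05 or less were called. The common coefficient of variation between replicates was 3.53%, and no value was dropped or imputed. Symbols, exons, GC content and overlaps came from GENCODE M21, which named 20171 of the 20189 genes, and promoters from RefSeq. Near copies were sought by sequence identity over at least 100 bases. Alternatives were DESeq2 1.42.0, RLE and deposited size factors, other count filters, fits of the compared groups alone, the replicate block, stricter thresholds and leaving out each library. Offsets for GC content and length (loess, span 0.3) were added after the data were seen. The tests were checked on simulated counts in which few genes changed and no GC trend was put in. That check does not cover the scaling where most genes change, or the smallest changes reported here.

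The members and the lists were chosen with earlier results of these data known. All members are described. Of the wider list, the 3 strongest called increases and the 3 strongest called decreases against unstarved cells were named in each starvation, provided the mean reached 1 CPM and the groups did not overlap, and the other genes of the list are named by group alone. Values of 2 genes of the list are not reported here, though they remain in its counts. The nearest genes were named for Psat1, Shmt2 and Mthfd2 by rule. Gm7901, Mthfd2l, Tyms, Sfxn1, Gart, Atic and the overlapping genes were named after their values were seen.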

Additional observations from a re-analysis of the deposited data

Results flagged for a closer look

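The response to Thr starvation differed from the response to Cys starvation in all 9 members and in 5 of the 6 genes of the wider list that were named by rule and are described here, by edgeR's quasi-likelihood test of Thr-starved against Cys-starved libraries. Because both responses are measured against the same unstarved cells, this direct log2 difference is the difference of the responses. It was -0.60 for Phgdh, -0.60 for Psph, -0.46 for Aldh1l2, -0.14 for Shmt1, -0.13 for Shmt2 and -0.08 for Mthfd1l, all lower with Thr, but with the GC and length offsets Shmt2 (0.12) and Mthfd1l (0.06) were called higher with Thr, and Mthfd1l was not called with the deposited size factors (-0.04). It was 0.12 for Mthfd2, 0.09 for Psat1 and 0.06 for Mthfd1, all higher with Thr. The Mthfd1 libraries overlapped between the starvations, and its call was lost under several alternatives. These were some of the fits that left out a library, the replicate block (adjusted p = 0.057) and at least 10 counts in every library (0.05, adjusted p = 0.065). Of the wider list, Folr1 (1.72) was higher with Thr, and Sfxn3 (-1.07), Fpgs (-0.81), Slc46a1 (-0.57) and Mtfmt (-0.49) were lower. Outside the rule, Sfxn1 (-0.51), Mthfd2l (-0.35), Gart (-0.29) and Atic (-0.14) were also called lower with Thr in this comparison, and Tyms (0.48) was called higher. Since 62.0% of all genes tested were called in the direct comparison, a difference of this kind was the usual case.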

How the results depend on the processing

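Of 153 member values over the alternatives in each comparison, 141 kept direction and call with Thr starvation, 149 with Cys starvation and 144 in the direct comparison. Requiring also a log2 fold change of 1 or more in size left 2668, 296 and 2303 of all genes (Thr, Cys, direct). It left 0 members higher and 0 lower with Thr, 1 and 0 with Cys (Aldh1l2) and 0 and 0 in the direct comparison, and of the wider list 1 and 2, 0 and 0, and 1 and 1. With the GC and length offsets 1 member was called lower with Thr (Phgdh lost its call, and Mthfd1 gained one at 0.19), and 5 were called higher in the direct comparison, where Shmt2 (0.12), Mthfd1l (0.06) and the members' median (0.064) changed sign; the cause was not tested. Uncalled values changed sign for Psph with Thr (0.00084 with these offsets, 0.01 without Thr-starved replicate 1, in a range of -0.06 to 0.01 without 1 library) and for Mthfd1 with Cys (0.0027 with at least 10 counts in every library, 0.0022 to 0.01 without Cys-starved replicate 2 or 3 or unstarved replicate 2, in a range of -0.02 to 0.01). Mthfd1 with Thr, at the threshold in the main test, was called in 9 of its 17 alternatives. The difference of the Shmt2 to Shmt1 ratio between the starvations ranged from -0.03 to 0.03 without 1 library (-0.03 without Thr-starved replicate 2, -0.02 without Cys-starved replicate 2). With the deposited size factors 36.8% of the calls with Cys starvation were higher, beside 48.2%, and the members' calls in that comparison did not change. Per kilobase of the longest transcript, unstarved levels were 124 (Phgdh), 247 (Psat1), 15.6 (Psph), 66.9 (Shmt1), 109 (Mthfd1), 140 (Shmt2), 145 (Mthfd2), 61.0 (Mthfd1l) and 1.17 (Aldh1l2), all higher because that length is shorter than the merged exons, with Mthfd2 then second and Shmt1 above Mthfd1l. By fitted log2 fold changes, 0, 2 and 1 of the 3 genes nearest to Psat1, Shmt2 and Mthfd2 were shared.

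The replicate numbers of the titles were not shown to pair libraries, with correlations of same-numbered deviations from -0.244 to 0.106. With the replicate block 12488, 7063 and 12334 of all genes were called, and of the members the direct difference of Mthfd1 alone lost its call (0.06, adjusted p = 0.057 from edgeR).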
